A study of Mus musculus with 8 samples.

Results

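Among the prominent piRNA loci of mouse testis that carry the name of a chromosome band and have no divergent partner among the measured loci, 7 were examined, of 208 loci in all and 94 named for a band. The members, taken by name, were 14-qA3-19970.2, 5-qG3-23659.2, 9-qA5.3-24188.1, 4-qC5-17839.1 and 10-qB4-6488.2, which are rich in piRNAs, and the neighbouring pair 14-qC1-1261.1 and 14-qC1-1010.2. They were picked from these data for their level and their position, so their levels are a description with no test, and their genotype effects were known when they were picked. Testis RNA of adult Exd2∆ mice, edited with Cas9 in C57BL6 embryos to lose the 3′ end of exon 2 of Exd2 and part of the intron after it, was compared with that of adult Exd2+/+ mice. There were 2 replicates, which the submitters call biological, per genotype and assay. How many founder lines the Exd2∆ mice came from is not given in the sources used here, and no treatment is recorded. Small RNA (cut from a gel) holds the mature piRNAs and long RNA (depleted of rRNA) their precursors. In what follows, piRNAs of a locus are its whole small RNA count and its precursor is its whole long RNA count.

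PIWI-interacting RNAs are short RNAs that guide PIWI proteins to silence transposons and to cleave other transcripts in germ cells. In meiotic and post-meiotic mouse germ cells most of them are cut from long single-stranded transcripts of RNA polymerase II, many driven by the transcription factor A-MYB, and the cutting takes place at the surface of mitochondria. Many such loci lie back to back and are transcribed away from a shared promoter. EXD2, the product of Exd2, is a protein with an exonuclease domain, and the study asked whether its loss alters piRNA production.

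All coordinates are GRCm38, as in the deposited tables, and gene overlaps are from GENCODE M21. The locus 14-qA3-19970.2 covers chromosome 14, 24081993 to 24130091, on the plus strand. On its strand the annotation holds 1 gene, Mir7210. The locus 5-qG3-23659.2 covers chromosome 5, 149790071 to 149831589, on the minus strand, and the lincRNA gene Gm21221 fills 23.5% of it in the same direction, with 1073 exonic bases. The locus 9-qA5.3-24188.1 (chromosome 9, 54207173 to 54249823, minus strand) lies wholly inside the span of Cyp19a1, the gene for aromatase, on the same strand and with 0 exonic bases, so it is intronic there. The locus 4-qC5-17839.1 (chromosome 4, 94280151 to 94331623, minus strand) likewise lies inside an intron of the lincRNA gene Gm12648. The locus 10-qB4-6488.2 (chromosome 10, 62651692 to 62706331, plus strand) runs against Stox1, a gene for a winged-helix DNA-binding protein that overlaps 86.5% of it on the other strand. It holds Mir7215 and the processed pseudogenes Gm18514 and Gm47261 on its own strand.

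None of the 7 has a measured locus on the opposite strand whose start lies within 5 kb of its own. The nearest opposite start is 136883 bp away, between the 14-qC1 loci, and at the other members it is 287821 bp or more away. The locus 10-qB4-6488.2 does start 474 bp from the annotated start of Ddx50, a gene for a DEAD-box RNA helicase transcribed the other way, which is outside the measured loci. The RefSeq promoter window of Ddx50 ends 224 bp short of the locus start. A search of its 300 bases on both strands found 0 matches of AACNG, a core of the motif bound by MYB proteins that 80.3% of 32851 RefSeq promoter windows hold. It also found 0 matches of CAGTTG, whose reverse complement contains AACTG and so overlaps AACNG, and which 13.7% of windows hold. This says only that these letters are not in that window.

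The annotated microRNAs on the strand of a member are shown because they are the short RNAs of these loci whose sequence the annotation gives. They are printed 5′ to 3′ from RefSeq (GRCm38.p6) with the seed, bases 2 to 8, in capitals. The first pair lies in 14-qA3-19970.2, at chr14:24088877-24088899 and chr14:24088907-24088930, and the second in 10-qB4-6488.2, at chr10:62682508-62682532 and chr10:62682536-62682558, all on the plus strand.
mmu-miR-7210-5p: uAACAUUGuagacaggcacaaag
mmu-miR-7210-3p: uUAUAUGUaaguaacaauguggcu
mmu-miR-7215-5p: gCUCUUUAuguccaagcugagcuac
mmu-miR-7215-3p: uGCUCUGAgaggcagaaaagcgg
No seed is shared among them, and the first base of all but mmu-miR-7215-5p is u, which is also the usual first base of piRNAs. Small RNA from these stretches cannot be told apart from the rest of the locus in the deposited counts.

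The 14-qC1 loci hold matching sequence. The locus 14-qC1-1261.1 covers chromosome 14, 44758112 to 44789939, on the minus strand, and 14-qC1-1010.2 covers chromosome 14, 44926822 to 44950817, on the plus strand, so they point away from each other with 136882 bp between them. The second lies wholly inside Gm16976, a transcribed pseudogene on its strand, and the lincRNA gene Gm34060 overlaps 29.8% of the first on the other strand. Each holds a processed pseudogene in its own direction at nearly the same distance from its start. The matching stretch begins 6339 bp into the first locus, in Gm49143, and 6341 bp into the second, in Gm49148. Their spliced sequences matched over 410 aligned bases at 99.5%, with 0 mismatches and a gap of 2 bases at the exon junction, and the first exons were identical over 343 bases. The first 150 of these matching bases are shown because they are the same in both loci, at chr14:44783451-44783600 on the minus strand and chr14:44933163-44933312 on the plus strand.
Gm49143 and Gm49148: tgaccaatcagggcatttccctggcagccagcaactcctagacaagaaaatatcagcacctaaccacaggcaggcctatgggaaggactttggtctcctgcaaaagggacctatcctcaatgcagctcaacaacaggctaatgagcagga
A second match lies deeper in the loci and runs against them on both sides. Bases 17 to 181 of the pseudogene Gm17187, 12296 to 12460 bp from the start of 14-qC1-1261.1, are identical to the 165 bases of Gm49147, 12280 to 12444 bp from the start of 14-qC1-1010.2. They lie at chr14:44777479-44777643 on the plus strand and chr14:44939102-44939266 on the minus strand.
Gm17187 and Gm49147: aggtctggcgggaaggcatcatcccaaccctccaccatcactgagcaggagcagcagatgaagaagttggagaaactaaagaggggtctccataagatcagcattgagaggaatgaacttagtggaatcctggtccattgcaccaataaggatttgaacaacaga
A read of 50 nt, the length sequenced, that comes from such a stretch cannot be placed in 1 of the 2 loci. The share of each locus that is repeated in the other was not measured, since only annotated transcripts were compared. The counts of the pair are therefore uncertain as separate values and are also given summed. At 95% identity over 100 bases or more, the transcript of Gm21221 in 5-qG3-23659.2 and those of Stox1, Gm18514 and Gm47261 at 10-qB4-6488.2 matched 0 other annotated genes, while transcripts of Gm16976, the gene that spans 14-qC1-1010.2, matched up to 2. The transcript of Mir7210 in 14-qA3-19970.2 is shorter than this, and 9-qA5.3-24188.1 and 4-qC5-17839.1 hold no annotated exon, so copies of these 3 loci were not looked for.

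**Figure D1:**
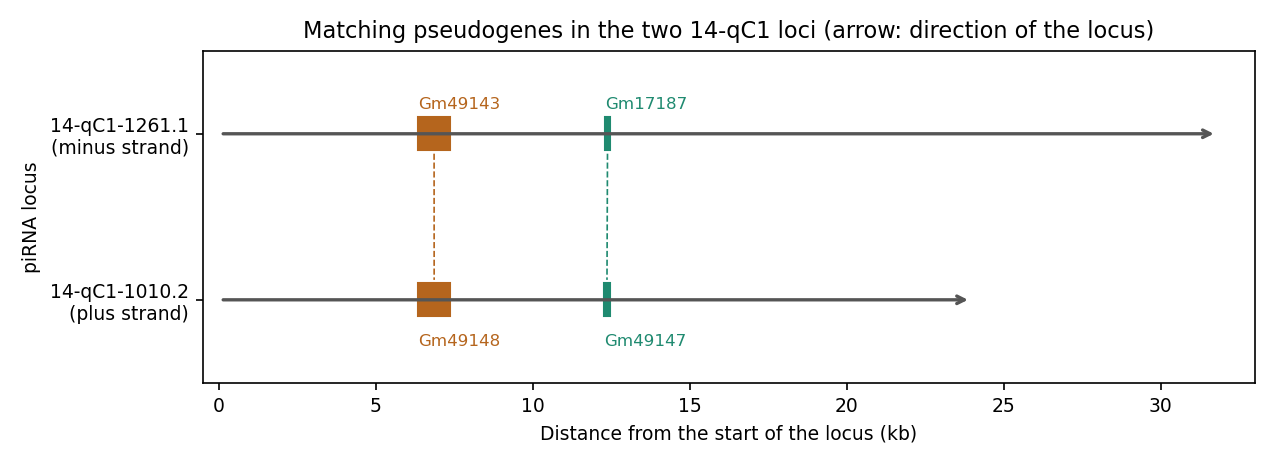
Matching pseudogenes in the 14-qC1 loci, plotted by distance in kb from the start of each locus, with arrows along the direction of the locus and coloured boxes for the aligned stretches. Both matches sit at nearly the same distance in the 2 loci, at 6339 and 6341 bp and at 12296 and 12280 bp.

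Summed over the 208 loci, the Exd2∆ small RNA libraries had 28408830 and 33983711 estimated counts, against 29039671 and 37660202 for Exd2+/+. The sums in long RNA were lower, at 960909 and 1638327 for Exd2∆, against 1406947 and 1842625 for Exd2+/+. Among the members the counting error was at most 0.392% of a value in small RNA and 2.47% in long RNA, and it covers counting only. Levels are given as CPM of the counts over the 208 loci, scaled by TMM, so a change shared by all loci would not be seen. Exd2 and markers of testis cell types are outside these loci and were not analysed here. In bulk tissue fewer cells that express a locus and less RNA per cell cannot be told apart. The long RNA library of Exd2∆ replicate 1 was the shallowest and correlated least with the others (r = 0.986 with Exd2∆ replicate 2 and 0.965 and 0.963 with the Exd2+/+ replicates, log2 CPM across loci, which are not independent).

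Together the 7 loci took 15.7% and 15.0% of the small RNA counts in the Exd2∆ libraries, against 14.8% and 14.9% in the Exd2+/+ libraries. In long RNA they took 5.13% and 6.35% in Exd2∆, against 7.70% and 7.71% in Exd2+/+. Their share of the precursors was thus lower in both Exd2∆ libraries, while their share of the piRNAs was slightly higher in both. The small RNA order does not hold after TMM scaling, where the 7 loci summed to 159828 and 142966 CPM in Exd2∆, against 149678 and 151762 CPM in Exd2+/+, and the genotypes overlap. The 5 abundant loci made up nearly all of the small RNA share, at 14.8% ± 0.610 (SD, n = 2) in Exd2∆ and 14.1% ± 0.0302 (SD, n = 2) in Exd2+/+. The 14-qC1 pair added 0.603% ± 0.166 (SD, n = 2) in Exd2∆ and 0.746% ± 0.0439 (SD, n = 2) in Exd2+/+.

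**Figure D2:**
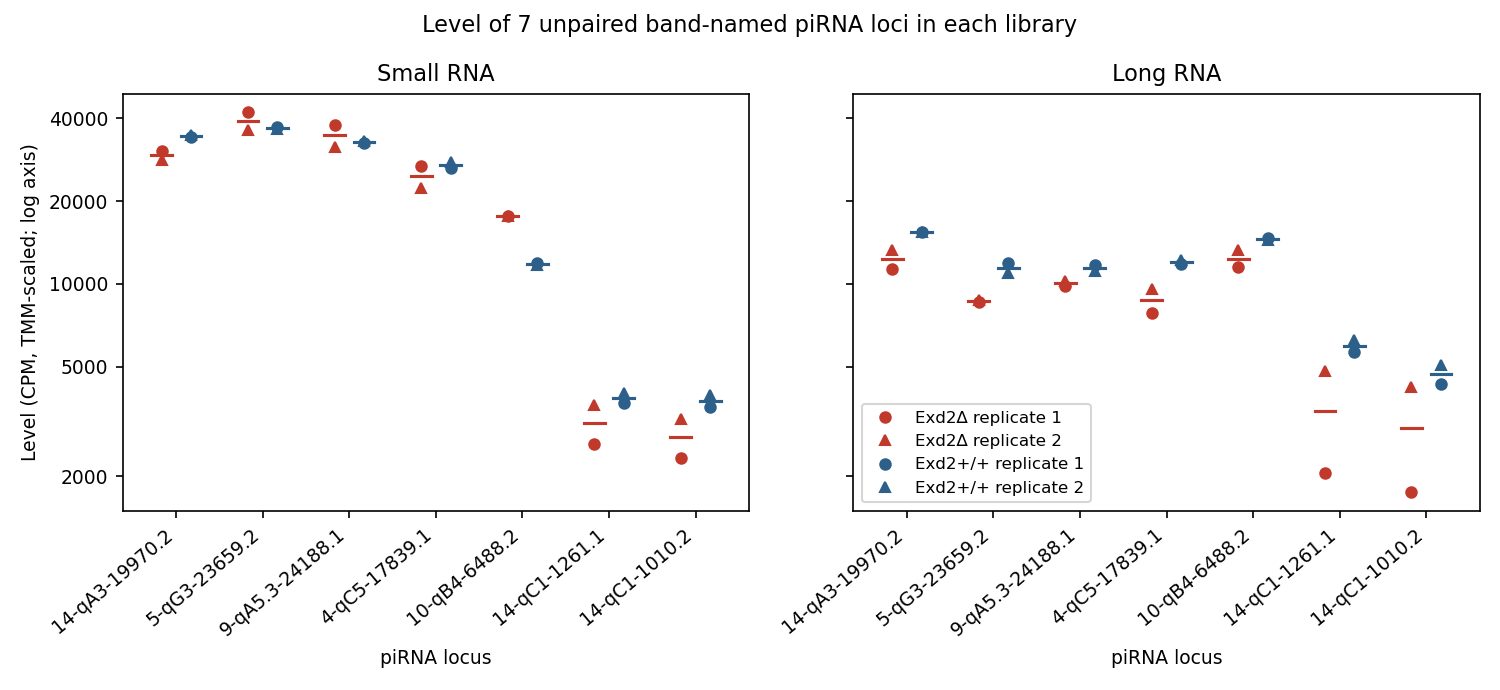
Level of each locus in each library, as TMM-scaled CPM on a log axis, for small RNA on the left and long RNA on the right. Points are libraries, short bars are the means of 2 replicates, and the 14-qC1 loci are the lowest in both assays, with their Exd2∆ replicates wide apart in long RNA.

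Ordered by mean small RNA CPM in Exd2+/+, the members ranked 8 (5-qG3-23659.2), 9 (14-qA3-19970.2), 10 (9-qA5.3-24188.1), 13 (4-qC5-17839.1), 27 (10-qB4-6488.2), 50 (14-qC1-1261.1) and 51 (14-qC1-1010.2) of 208. The first 3 differed from their neighbours in this order by more than the spread of the Exd2+/+ replicates, while the other 4 overlapped both of theirs. Per kb of locus, the small RNA level in Exd2+/+ was 889 ± 9.56 CPM at 5-qG3-23659.2, 771 ± 8.19 CPM at 9-qA5.3-24188.1 and 717 ± 6.31 CPM at 14-qA3-19970.2 (SD, n = 2 each). It was 525 ± 17.8 CPM per kb at 4-qC5-17839.1, 217 ± 3.31 CPM per kb at 10-qB4-6488.2, 156 ± 10.7 CPM per kb at 14-qC1-1010.2 and 120.5 ± 7.12 CPM per kb at 14-qC1-1261.1 (SD, n = 2 each). The order of the 14-qC1 loci thus turned once length was taken into account.

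Per kb the precursors lay much closer together than the piRNAs. In Exd2+/+ long RNA the highest member was 14-qA3-19970.2, with 321 ± 0.671 CPM per kb, and the lowest was 14-qC1-1261.1, with 187 ± 12.9 CPM per kb (SD, n = 2 each). By CPM per kb the members ranked between 48 and 88 of 208 in long RNA and between 14 and 65 in small RNA. Relative to its precursor, 5-qG3-23659.2 was the richest in piRNAs of the 7, with a small RNA CPM 4.51 times its long RNA CPM in Exd2∆ and 3.23 times in Exd2+/+. In Exd2+/+ this ratio ranked 3 of 208 loci. The ratio in Exd2+/+ ranged down to 0.646 at 14-qC1-1261.1, against a median of 0.164 over all loci. Every member had a higher ratio in Exd2∆ than in Exd2+/+, by little at 14-qA3-19970.2 (2.38 in Exd2∆ and 2.24 in Exd2+/+). The genotype effect fitted by edgeR was likewise higher in small than in long RNA at 113 of 208 loci. With 1 library left out, this fitted difference turned negative at 14-qA3-19970.2 and at 14-qC1-1010.2. The ratios are of relative levels in 2 assays, not yields.

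In small RNA 1 member rose, 2 fell and 4 were not called, at a threshold of 0.05 on the p of edgeR's quasi-likelihood test, adjusted over 208 loci after Benjamini and Hochberg. Over all 208 loci 33.2% were higher and 31.7% lower, 64.9% together, a larger share than among the members. With RLE scaling 132 of 208 loci were called, and with library totals 133. The split of the members depends on the scaling. It was 1 higher and 4 lower with RLE, which added 4-qC5-17839.1 and 14-qC1-1261.1, and 3 higher and 3 lower with library totals, which added 5-qG3-23659.2, 9-qA5.3-24188.1 and 14-qC1-1261.1. Their median log2 fold change was -0.13, against 0.04 over all loci and -0.04 over the 71 band-named loci without a divergent partner, of which 22 rose and 29 fell.

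The rise was at 10-qB4-6488.2. It had 17632 and 17673 small RNA CPM in the Exd2∆ libraries, against 11960.2 and 11704 CPM in the Exd2+/+ libraries. Both Exd2∆ libraries were higher by about the same amount, and the replicates of each genotype lay within 1.02-fold of each other. The log2 fold change was 0.58 ± 0.05 (SE; 95% interval 0.46 to 0.69), a fold of 1.49, with an adjusted p of 1.16e-05 by edgeR. It stayed called in each of the 12 alternative fits, between 0.54 and 0.62. The filter settings among these fits repeated the main fit, since they kept all loci. The rank of 10-qB4-6488.2 among the loci was 20 in Exd2∆ and 27 in Exd2+/+.

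The precursor of 10-qB4-6488.2 lay on the other side. It had 11482 and 13231 long RNA CPM in Exd2∆, against 14712 and 14406 CPM in Exd2+/+. Both Exd2∆ libraries were the lower ones, at -0.24 ± 0.09 on the log2 scale (SE; adjusted p = 0.170, edgeR), which was not called. It was -0.14 and -0.34 without Exd2∆ replicate 1 or 2, and -0.22 and -0.25 without Exd2+/+ replicate 1 or 2. The genotype effect was higher in small than in long RNA by 0.81 on the log2 scale (95% interval 0.58 to 1.04; adjusted p = 2.77e-04, edgeR interaction of assay and genotype). Stox1 was not counted apart, and the sources used here do not state whether counting used strand, so Stox1 RNA within the locus cannot be told apart from its precursor. Nor can RNA of genes on the strand of a member. These are Cyp19a1 at 9-qA5.3-24188.1, Gm12648 at 4-qC5-17839.1, Gm21221 at 5-qG3-23659.2 and Gm16976 at 14-qC1-1010.2, among others.

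The member with the highest small RNA level, 5-qG3-23659.2, showed its change in the precursor. It had 8596 and 8748 long RNA CPM in Exd2∆, against 11910.1 and 10934 CPM in Exd2+/+. Both Exd2∆ libraries were low and close together. The log2 fold change was -0.40 ± 0.08 (SE; 95% interval -0.60 to -0.20; adjusted p = 0.0446, edgeR). It was the only member called in long RNA, where 0.962% of all loci were lower and 6.73% higher, 7.69% together. The call rests on few libraries. Without Exd2+/+ replicate 1 or 2 the value was -0.33 and -0.46 with an adjusted p of 0.589 and 0.308 by edgeR, and with edgeR's default option the adjusted p was 0.0515.

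Its piRNAs measured 42008 and 36229.9 CPM in Exd2∆, against 37186 and 36624 CPM in Exd2+/+. The Exd2∆ libraries enclosed the Exd2+/+ ones, and the log2 fold change of 0.08 ± 0.08 (SE; 95% interval -0.09 to 0.26; adjusted p = 0.363, edgeR) was not called. It was -0.035 without Exd2∆ replicate 1 and 0.18 without Exd2∆ replicate 2 (adjusted p = 0.306 and 0.0126, edgeR). The difference between the assays was 0.48 on the log2 scale (95% interval 0.24 to 0.73; adjusted p = 0.00603, edgeR interaction). By sign alone this difference was positive at all 7 members and at 113 of 208 loci. Of the top 20 loci by mean CPM in small RNA, 4 of them members, 14 were positive. Over all loci 25.5% were called higher and 26.4% lower, 51.9% together. Among the members, this locus and 10-qB4-6488.2 were the 2 of 7 called higher in small than in long RNA. Both stayed called in each of the 15 alternative fits. The filter settings among these repeated the main fit, since they kept all loci.

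At 14-qA3-19970.2 both Exd2∆ libraries were the lower ones in both assays, and the fall was called in small RNA. Its piRNAs had 30476 and 28333 CPM in Exd2∆, against 34292 and 34721 CPM in Exd2+/+. The genotypes did not overlap, and the log2 fold change was -0.23 ± 0.06 (SE; adjusted p = 0.00878, edgeR). Without Exd2+/+ replicate 1 or 2 it was -0.24 and -0.22 and no longer called (adjusted p = 0.0902 and 0.129, edgeR). Its precursor had 11341 and 13330.0 CPM in Exd2∆, against 15449 and 15403 CPM in Exd2+/+. At -0.32 ± 0.10 on the log2 scale (SE; adjusted p = 0.117, edgeR) it was not called. It was -0.21 and -0.44 without Exd2∆ replicate 1 or 2, and -0.32 without either Exd2+/+ replicate. The assays differed by 0.09 (95% interval -0.16 to 0.34), so a difference between them was not detectable. This difference was -0.023 without long RNA Exd2∆ replicate 1 and 0.21 without long RNA Exd2∆ replicate 2.

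The other loci of the same band all lie on the minus strand. Of these, 14-qA3-284.2, with its start 347832 bp away, fell in small RNA (-0.23 ± 0.08, adjusted p = 0.0370, edgeR). The loci 14-qA3-2286.2 (0.12 ± 0.05, start 287821 bp away) and 14-qA3-3095.1 (0.10 ± 0.05, start 4428583 bp away) were not called in small RNA (adjusted p = 0.0843 and 0.0880, edgeR). The fall was thus not called throughout the band. Whether these effects differ from that of 14-qA3-19970.2 was not tested.

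The loci 9-qA5.3-24188.1 and 4-qC5-17839.1 were not called in either assay. At 9-qA5.3-24188.1, the locus within Cyp19a1, the piRNAs had 37841 and 31575 CPM in Exd2∆, against 32634 and 33128 CPM in Exd2+/+. The Exd2∆ libraries again enclosed the Exd2+/+ ones, with a log2 fold change of 0.08 (95% interval -0.11 to 0.27). It was -0.067 without Exd2∆ replicate 1 and 0.20 without Exd2∆ replicate 2 (adjusted p = 0.162 and 0.0167, edgeR). Its precursor had 9827 and 10255 CPM in Exd2∆, against 11752 and 11147 CPM in Exd2+/+, which put both Exd2∆ libraries lower, at -0.19 ± 0.08 on the log2 scale (SE; adjusted p = 0.170, edgeR). The precursor value was -0.16 and -0.22 without Exd2∆ replicate 1 or 2, and -0.15 and -0.23 without Exd2+/+ replicate 1 or 2.

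At 4-qC5-17839.1 the piRNAs had 26921 and 22306 CPM in Exd2∆, against 26364 and 27660.2 CPM in Exd2+/+. The genotypes overlapped, with a log2 fold change of -0.13 (95% interval -0.33 to 0.06). It was -0.28 and called without Exd2∆ replicate 1 but -0.012 without Exd2∆ replicate 2 (adjusted p = 0.0195 and 0.841, edgeR). Its precursor had 7849.6 and 9557 CPM in Exd2∆, against 11821 and 12176 CPM in Exd2+/+. The genotypes were apart, at -0.46 ± 0.11 on the log2 scale (SE; adjusted p = 0.0722, edgeR), which missed the threshold. It passed with DESeq2 (-0.46, adjusted p = 0.00630) but not with edgeR's default option (-0.46, adjusted p = 0.0782). By edgeR it was -0.33 and -0.61 without Exd2∆ replicate 1 or 2, and -0.48 and -0.44 without Exd2+/+ replicate 1 or 2. In small minus long RNA the effect was 0.33 ± 0.15 at 4-qC5-17839.1 and 0.27 ± 0.12 at 9-qA5.3-24188.1 (log2 scale, SE; adjusted p = 0.107 and 0.0851, edgeR). Without small RNA Exd2∆ replicate 2 these were 0.45 and 0.38 and called (adjusted p = 0.0410 and 0.00815, edgeR), and without small RNA Exd2∆ replicate 1 they were 0.18 and 0.12 (adjusted p = 0.349 and 0.259, edgeR). At 4-qC5-17839.1 the value was 0.19 without long RNA Exd2∆ replicate 1 and 0.47 without long RNA Exd2∆ replicate 2 (adjusted p = 0.244 and 0.0126, edgeR).

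**Figure D3:**
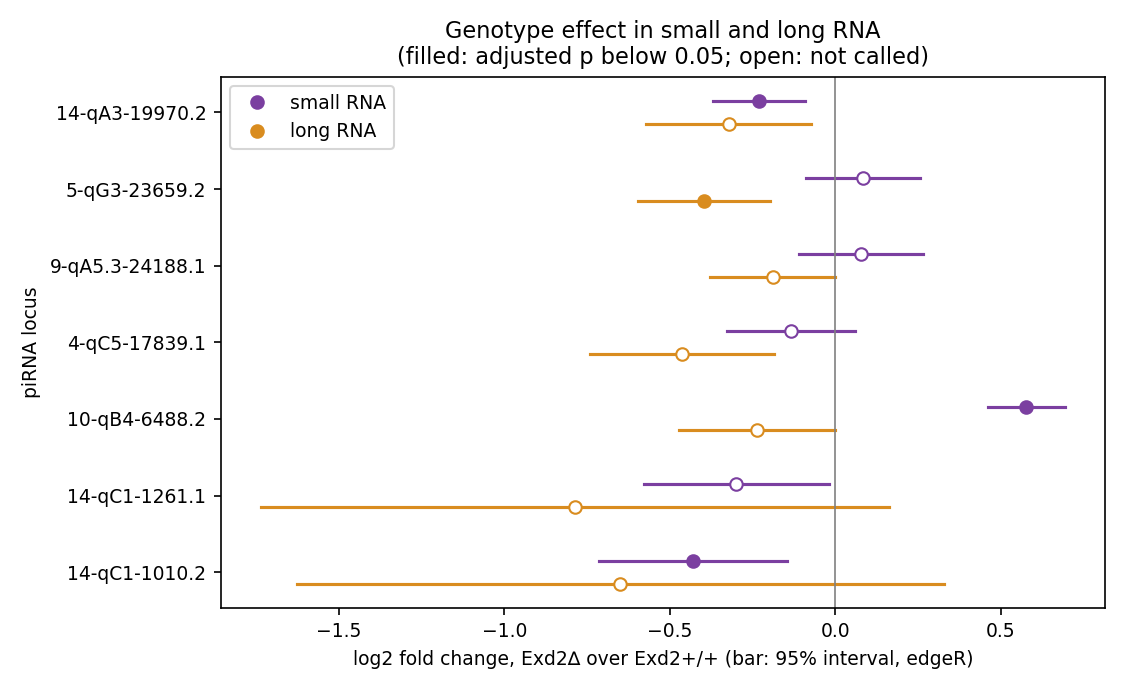
Genotype effect at each locus as the log2 fold change of Exd2∆ over Exd2+/+ with its 95% interval from edgeR, for small and long RNA, filled where the adjusted p is below 0.05. All long RNA points lie left of 0, with 1 called, while in small RNA 10-qB4-6488.2 lies at 0.58 and 2 of the others are filled on the left.

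In long RNA all 7 members had both Exd2∆ libraries below both Exd2+/+ libraries, against 30.3% of all loci lower, 32.2% higher and 62.5% together. The sign was negative at all 7 under each alternative run. As the genotypes did not overlap, leaving out 1 library could hardly turn it. The number called moved with the library left out. DESeq2 on all libraries called 3 members and 39 of 208 loci. The median log2 fold change of the members was -0.40, against 0.01 over all loci and -0.11 over the 71 band-named loci without a divergent partner. Of the top 20 loci by mean CPM in small RNA, 4 of them members, 19 had a negative value in long RNA (median -0.22), with 1 called lower. Of the top 20 by mean CPM in long RNA, 2 of them members, 12 had a negative value there (median -0.11), with 3 called, each higher. In small RNA the genotypes did not overlap at 4 of the 7 members, 3 lower and 1 higher in Exd2∆, against 39.4% lower and 39.9% higher of all loci, 79.3% together.

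The 14-qC1 loci were set apart by the distance between their Exd2∆ replicates. Precursor of 14-qC1-1261.1 stood at 2051 and 4823 CPM in Exd2∆ replicates 1 and 2, against 5649 and 6231 CPM in Exd2+/+. For 14-qC1-1010.2 it stood at 1755 and 4206 CPM in Exd2∆, against 4309 and 5065 CPM in Exd2+/+. Exd2∆ replicate 1 was far below the other libraries at both loci, while Exd2∆ replicate 2 lay nearer to the Exd2+/+ range but below it. The Exd2∆ replicates differed 2.40-fold at 14-qC1-1010.2 and 2.35-fold at 14-qC1-1261.1, ranks 1 and 2 of 208 loci and the 2 that exceeded 2-fold, against a median of 1.11-fold. Between the Exd2+/+ replicates 0 loci exceeded 2-fold.

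The library numbered 1 was also the lower one in small RNA. The piRNAs of 14-qC1-1261.1 had 2616 and 3619 CPM in Exd2∆ replicates 1 and 2, against 3675 and 3995 CPM in Exd2+/+. Those of 14-qC1-1010.2 had 2334 and 3230.1 CPM in Exd2∆, against 3567 and 3929 CPM in Exd2+/+. Here too the pair took ranks 1 and 2 of 208 in the distance between the Exd2∆ replicates, at 1.38-fold each, against a median of 1.08-fold. Whether replicate 1 of the 2 assays came from the same animal is not given in the sources used here.

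**Figure D4:**
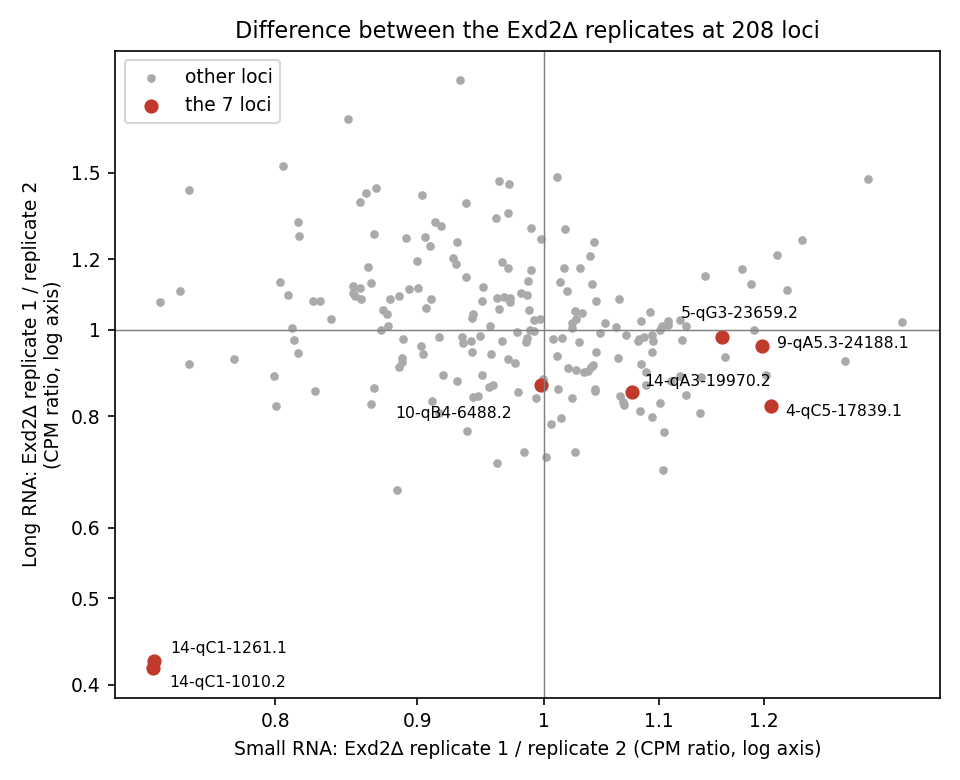
Level in Exd2∆ replicate 1 divided by that in replicate 2 at each of the 208 loci, small RNA on the horizontal and long RNA on the vertical log axis. The 14-qC1 loci stand alone at the lower left, at 0.723 and 0.722 in small RNA and 0.425 and 0.417 in long RNA, while the other 5 members lie among the remaining loci.

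The genotype effect at the pair depends on 1 library. In small RNA 14-qC1-1010.2 fell by 0.43 ± 0.13 on the log2 scale (SE; adjusted p = 0.0139, edgeR), and 14-qC1-1261.1 stood at -0.30 ± 0.12 (SE; adjusted p = 0.0588, edgeR). These values, without Exd2∆ replicate 1, were -0.22 and -0.09 (adjusted p = 0.104 and 0.361, edgeR), and neither was called. Without Exd2∆ replicate 2 they were -0.69 and -0.56 (adjusted p = 0.0104 and 0.0126, edgeR). Without Exd2+/+ replicate 1 or 2 the value at 14-qC1-1261.1 was -0.36 and -0.24. With all libraries kept it lay near the threshold. Besides RLE and library-total scaling, it passed with DESeq2 (-0.33, adjusted p = 0.0479). By edgeR it passed with member-free scaling (-0.34, adjusted p = 0.0430) and the replicate block (-0.32, adjusted p = 0.0474). It did not pass with edgeR's default option (-0.30, adjusted p = 0.129). With the pair summed as 1 locus, the small RNA value was -0.36 ± 0.12 (SE; adjusted p = 0.0232, edgeR), from 4950.0 and 6849 CPM in Exd2∆, against 7241 and 7924 CPM in Exd2+/+.

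In long RNA the log2 fold changes were -0.79 ± 0.38 at 14-qC1-1261.1 and -0.65 ± 0.39 at 14-qC1-1010.2 (SE; adjusted p = 0.243 and 0.325, edgeR), neither called. Their 95% intervals ran from -1.74 to 0.16 and from -1.63 to 0.33. With same-numbered replicates treated as pairs, they were -0.91 and -0.78 and both called (adjusted p = 1.52e-10 and 9.97e-08, edgeR). Whether such replicates belong together is not given in the sources used here, so the call depends on an unsettled pairing. Without Exd2∆ replicate 1 they were -0.30 and -0.15 (adjusted p = 0.00599 and 0.240, edgeR), and without Exd2∆ replicate 2 they were -1.53 and -1.41 (adjusted p = 1.94e-34 and 1.60e-29, edgeR, with the lone Exd2∆ library assumed to vary like the Exd2+/+ libraries). Summed, the pair had 3806 and 9029 CPM in Exd2∆, against 9959 and 11296 CPM in Exd2+/+ (log2 fold change -0.72 ± 0.40, SE; adjusted p = 0.308, edgeR). The effect in small minus long RNA was 0.49 ± 0.46 at 14-qC1-1261.1 and 0.22 ± 0.48 at 14-qC1-1010.2 (log2 scale, SE; adjusted p = 0.409 and 0.741, edgeR). Without long RNA Exd2∆ replicate 2 these were 1.23 and 0.98 (adjusted p = 0.00144 and 0.00656, edgeR), and without long RNA Exd2∆ replicate 1 they were 6.64e-06, which is next to 0, and -0.28 (adjusted p = 1.00 and 0.336, edgeR). Without small RNA Exd2∆ replicate 2 they were 0.23 and -0.042 (adjusted p = 0.764 and 0.947, edgeR). The labels give no reason to leave a library out.

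Within a library the 14-qC1 loci kept a nearly fixed ratio whatever their level. The small RNA counts of 14-qC1-1261.1 were 1.12 and 1.12 times those of 14-qC1-1010.2 in Exd2∆, against 1.03 and 1.02 times in Exd2+/+. In long RNA the ratio was 1.17 and 1.15 in Exd2∆, against 1.31 and 1.23 in Exd2+/+. The ratio was thus higher in Exd2∆ in small RNA and lower in Exd2∆ in long RNA, with no overlap in either. An exact permutation test, two-sided, gave p = 0.333 in each assay, the smallest that 2 against 2 libraries allow. Across the 8 libraries, centred within each assay, the pair had a Pearson r of 0.989 on the log2 scale, the closest of the 21 pairs among the members. They share sequence and libraries, so this is a description, and the part of the shared sequence in it was not tested.

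The other loci most like each member were found by the same correlation over the 8 libraries, a description with no test since the points share libraries. For 5-qG3-23659.2 it was 6-qF3-28913.1 (r = 0.992), which stood at 0.06 ± 0.07 in small and -0.34 ± 0.07 in long RNA (log2 fold change, SE). The piRNA-rich 10-qB4-6488.2 was most like the gene-named pi-Strbp.1 (r = 0.982), which rose in small RNA (0.62 ± 0.09, adjusted p = 2.88e-04, edgeR) and stood at -0.15 ± 0.09 in long RNA (adjusted p = 0.309, edgeR). For 14-qA3-19970.2 it was 10-qC1-12816.2 (r = 0.977), for 4-qC5-17839.1 it was 3-qA2-617.1 (r = 0.945) and for 9-qA5.3-24188.1 it was 18-qE1-36451.1 (r = 0.885). The 14-qC1 loci came closest to 10-qC1-875.3 (r = 0.907 with 14-qC1-1261.1) and pi-BC026590.2 (r = 0.903 with 14-qC1-1010.2), less than to each other.

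The authors' deposited table has the same signs at the members as the fits used here. The authors' deposited table lists log2 fold changes of 0.58 in small RNA at 10-qB4-6488.2 (adjusted p = 1.63e-05) and -0.40 in long RNA at 5-qG3-23659.2 (adjusted p = 0.0423). The largest departures among the members were in long RNA at the pair, where the authors' deposited table gives -0.92 for 14-qC1-1261.1 and -0.82 for 14-qC1-1010.2 (adjusted p = 0.154 and 0.217), below the values fitted here.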

How the data were processed

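Testis small RNA and long RNA were profiled in 2 Exd2∆ and 2 Exd2+/+ libraries each. The authors deposited per assay a table of estimated counts for 208 piRNA loci, not scaled to library size. Multiplied by 2520, each value is whole to within 0.001, while 0 of the 28 member values per assay are whole themselves. Reads shared evenly over at most 10 placements would leave such fractions, but how repeats were counted is not stated. The deposited tables also hold log2 fold changes and adjusted p-values from edgeR, per the file headers. The submitters' processing notes list edgeR, STAR, cutadapt and GRCm38, without versions. The sources used here name no counting tool or strand setting. Columns were matched by the sample codes, with 0 left unmatched.

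Counts were rounded and tested with edgeR 4.0.16 in R 4.3.3 (filterByExpr, which kept 208 loci in each assay, TMM, glmQLFit with the legacy option, glmQLFTest with genotype as the only term), per assay, and for the interaction over all 8 libraries. The standard error is the absolute log2 fold change divided by the square root of F. The legacy option was taken over from earlier work on these data, where it was chosen with first results in view. Alternatives were RLE, library-total and member-free scaling, no filter, at least 100 counts in 2 libraries, edgeR's default option, DESeq2 1.42.0, a replicate block and leaving out each library; summing the 14-qC1 loci was added after seeing the data. Fits were also run on counts simulated with the spread estimated from these same libraries, which does not test that spread. Transcripts were compared with BLAST 2.17.0. Members and lists were chosen with earlier results of these data known. Named were the 7 members, their most alike loci and the other loci of their band or within 1 Mb. No genome was used, so locus promoters were not searched. The edgeR p-values set the genotype difference against the spread between these samples, estimated with information shared across loci.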

Additional observations from a re-analysis of the deposited data

Results flagged for a closer look

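At 10-qB4-6488.2 the genotype effect differed between the assays, with a log2 fold change 0.81 higher in small than in long RNA (adjusted p = 2.77e-04, edgeR interaction of assay and genotype over 8 libraries). At 5-qG3-23659.2 it differed by 0.48 in the same direction (adjusted p = 0.00603, edgeR). Such a difference was called at 51.9% of all loci, with 25.5% higher and 26.4% lower in small RNA. In both loci the 2 Exd2∆ libraries were below the 2 Exd2+/+ libraries in long RNA, as at 30.3% of all loci. Only 10-qB4-6488.2 had both Exd2∆ libraries higher in small RNA, against 39.9% of all loci.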

How the results depend on the processing

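Genotype and interaction effects at single members kept direction and side of the threshold in 228 alternative values, passed only there in 39, lost the call in 7 and turned sign in 5. In small RNA 3 members and 135 of 208 loci were called. With RLE scaling it was 5 members and 132 loci, and with library-total scaling 6 members and 133 loci. Leaving out 1 library also moved the number of members called. In long RNA 1 member and 16 of 208 loci were called. DESeq2 called 3 members and 39 loci there, and leaving out 1 library gave 0 to 7 members and 0 to 105 loci. Without Exd2+/+ replicate 1 or 2 edgeR called 0 loci in long RNA, with 17 and 20 loci at an unadjusted p below 0.05, and with its default option it called 0 members, with 3 at an unadjusted p below 0.05. For the interaction 2 members and 108 of 208 loci were called, against 4 members and 109 loci with library-total scaling. Leaving out 1 library moved the number of members called here too.

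Leaving out 1 library turned some signs. In small RNA the range was -0.035 to 0.18 at 5-qG3-23659.2 and -0.067 to 0.20 at 9-qA5.3-24188.1, negative without Exd2∆ replicate 1. For the interaction it was -0.023 to 0.21 at 14-qA3-19970.2 and -0.28 to 0.98 at 14-qC1-1010.2, negative without long RNA Exd2∆ replicate 1 and, at 14-qC1-1010.2, also without small RNA Exd2∆ replicate 2 (-0.042). The summed CPM of the 7 loci in Exd2+/+ was 148345 with library totals and 150720 with TMM in small RNA, and 77065 and 75482 in long RNA. The cause of these shifts was not tested.

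The sources used here do not say whether same-numbered replicates of the genotypes belong together. Their deviations correlated at 0.04 in small and 0.34 in long RNA (2 pairs), too few pairs to settle it. With the replicate block 4 members, both 14-qC1 loci among them, and 38 loci were called in long RNA. For the interaction it was 5 members, with 14-qC1-1261.1 but not 14-qC1-1010.2 among them, and 117 loci. The locus 14-qA3-19970.2 lost its small RNA call with this block (-0.23, adjusted p = 0.0522, edgeR). A lone sample left in a genotype is assumed to vary like the other group. Counting error at the members is small at this depth, so the spread between 2 replicates sets the limits.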
